A study of Mus musculus with 2 samples.

Results

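The cytochrome P450 genes were examined for RUNX2 CUT&Tag peaks in MC3T3-E1 cells. The members were taken by name, as the protein-coding RefSeq genes on chromosomes 1 to 19 whose symbol is Cyp followed by a number, a letter and a number, and 92 of 20665 protein-coding genes on these chromosomes met this rule. MC3T3-E1 is a mouse cell line of osteoblast precursors, labelled as embryonic, and RUNX2 is the transcription factor required for osteoblast formation. The cells were untreated, no genetic change is named in the labels, and the series holds 1 group of 2 replicate libraries. In CUT&Tag, the transposase Tn5 is tethered through an antibody to chromatin that carries the protein, and the DNA fragments it releases are sequenced. The lists held 26853 peaks for replicate 1 and 27287 for replicate 2, of which 26332 and 26779 lay on chromosomes 1 to 19, with no height, score or read number. Depth is therefore unknown, and a gene listed without a peak is not shown to lack binding. No control library was analysed here, so RUNX2 sites and chromatin that Tn5 cuts for other reasons cannot be told apart. Whether the replicates were separate cultures is not stated in the labels. All positions are given in GRCm38 (mm10).

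Cytochromes P450 are haem-containing monooxygenases that insert an oxygen atom into lipids, hormones and foreign compounds, taking electrons from the reductase encoded by Por in the endoplasmic reticulum or from a ferredoxin in mitochondria. A few members have fixed tasks in sterol, bile acid, vitamin D, retinoic acid and steroid hormone metabolism. Most of the others belong to families 2, 3 and 4, lie in tandem arrays of related copies and are known for expression in liver, intestine and kidney. In bone, the vitamin D enzymes are the best known, since they make and destroy the hormone 1,25-dihydroxyvitamin D, which acts on osteoblasts through the vitamin D receptor.

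Few P450 genes had a RUNX2 region found in both replicates. A shared region here is a merged stretch in which a peak of each replicate overlapped by at least 1 bp, and it was linked to a gene when any part of it lay inside the gene's span or within 10 kb of either end. By this link, 17 of the 92 P450 genes (18.5%) had at least 1 shared region, against 54.8% of all protein-coding genes on chromosomes 1 to 19. Counting every peak of a list, shared or not, replicate 1 had a peak at 25 P450 genes (27.2%, against 62.7% of all protein-coding genes). Replicate 2 also had one at 25 (27.2%, against 62.8%). No peak of either replicate was called at 61 members (66.3%, against 32.1% of all protein-coding genes). A region lay at least partly inside the span of 11 members, against 42.8% of all protein-coding genes, and inside or within 1 kb of 12, against 45.4%. The shares are descriptions, without a test, because neighbouring members share regions and sequence and are not replicates. The 17 genes were Cyp1a1, Cyp1a2, Cyp1b1, Cyp2c23, Cyp2t4, Cyp3a57, Cyp4f13, Cyp4f16, Cyp4f17, Cyp7b1, Cyp8b1, Cyp20a1, Cyp26a1, Cyp26c1, Cyp27b1, Cyp39a1 and Cyp46a1.

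The regions divided unevenly between genes in arrays and genes outside them. An array was defined as a chain of at least 4 members with gaps of at most 500 kb, which gave 7 arrays with 63 genes and left 29 genes outside. Of the genes outside arrays 12 had a shared region (41.4%), against 5 of the 63 array genes (7.94%). The sterol and bile acid, vitamin D and broadly expressed members had, as a pool, 6 of 12 (50%), against the same 5 of 63 in the arrays. Both the genes outside arrays and this pool thus stood near or below the 54.8% of all protein-coding genes, and the array genes well below it. The 6 linked genes were 4 of 6 sterol and bile acid genes, 1 of 3 vitamin D genes and 1 of 3 broadly expressed genes. All 3 members known as targets of the aryl hydrocarbon (Ah) receptor had a shared region, as did 2 of 3 retinoic acid genes, 0 of 6 steroid hormone genes and 1 of the 5 remaining genes outside arrays.

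**Figure D1:**
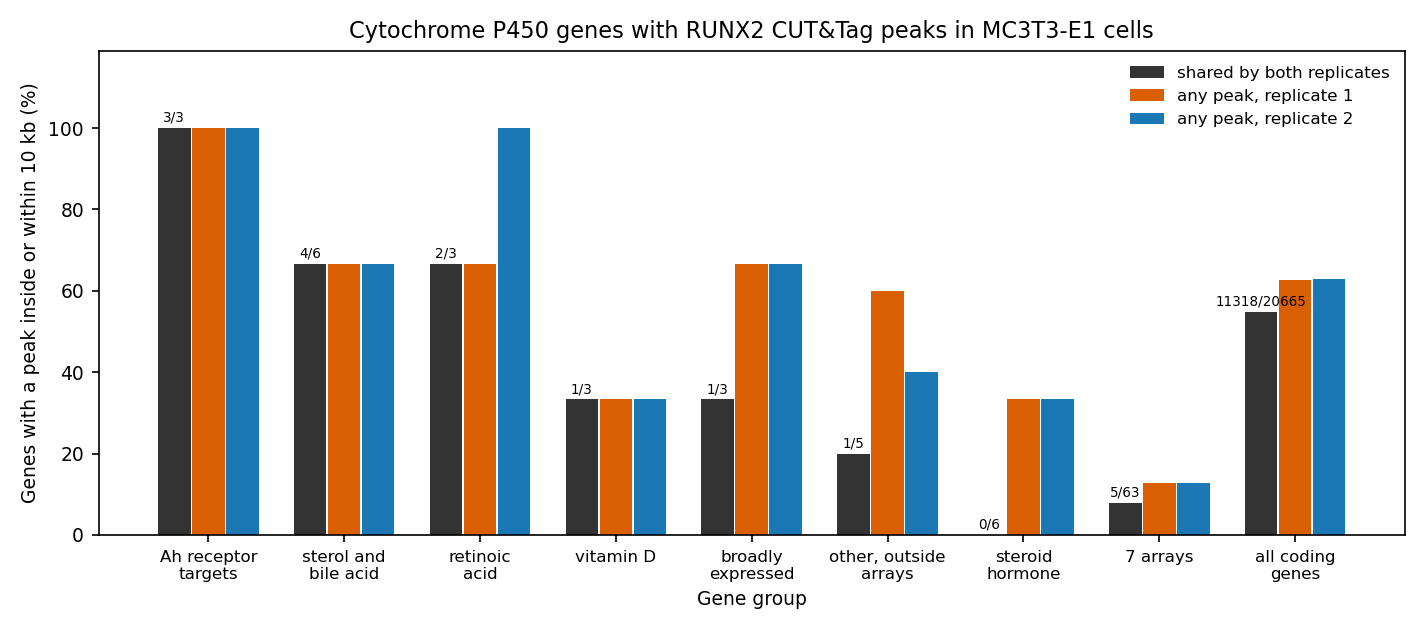
Percentage of genes with a peak inside the span or within 10 kb, by gene group. Dark bars count regions found in both replicates, with the number of genes above, and coloured bars count any peak of each replicate. The 63 array genes stand at 7.94% for shared regions, and all protein-coding genes at 54.8%.

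In each class of gene length, the share of P450 genes was below that of all protein-coding genes. P450 genes had a median span of 21.4 kb, against 17.5 kb for all protein-coding genes. A shared region was found at 7 of 25 members under 10 kb long (39.5% of all genes of that length), 6 of 36 members of 10 to 30 kb (60.6% of all), 3 of 28 members of 30 to 100 kb (65% of all) and 1 of 3 members over 100 kb (66.1% of all). The split by arrays differed. Under 10 kb, 6 of 11 members outside arrays had a shared region, against 1 of 14 array genes, and from 30 to 100 kb, 2 of 3 against 1 of 25. These counts outside arrays were not below the share of all genes of that length. From 10 to 30 kb they were 3 of 13 outside arrays, against 3 of 23 in arrays, and over 100 kb 1 of 2 against 0 of 1.

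The sterol and bile acid genes included members with regions at the start, in the body and at the far end. Cyp46a1, which encodes the brain cholesterol 24-hydroxylase, had a region across its start on chromosome 12 (108333953 to 108334348), with a peak of 396 bp in replicate 1 and 339 bp in replicate 2. The midpoint lay 166 bp before the RefSeq transcript start. Replicate 2 alone had another peak of 183 bp, 364 bp beyond the other end of the gene.

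Cyp39a1, which encodes an oxysterol 7-alpha-hydroxylase, had 2 regions on chromosome 17. The first (43666770 to 43667533) crossed the low end of its span, with peaks of 747 bp in replicate 1 and 574 bp in replicate 2, and it also overlapped the neighbouring gene Slc25a27. The second (43707266 to 43707774) lay inside the gene, 40052 bp from Slc25a27, with peaks of 297 and 493 bp. Cyp7b1, which encodes the oxysterol 7-alpha-hydroxylase of the alternative bile acid pathway, had 1 region inside its span of 171947 bp on chromosome 3 (18215275 to 18215828), with peaks of 300 bp in replicate 1 and 554 bp in replicate 2. No other protein-coding gene lay within 157761 bp of it.

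Cyp8b1, which encodes the sterol 12-alpha-hydroxylase of cholic acid synthesis, had a region across the end opposite its start on chromosome 9 (121914190 to 121914817), with peaks of 406 and 628 bp. Its midpoint was 1802 bp past the transcript start. The other 2 genes of the list had no peak in either replicate. These were Cyp7a1, the rate-limiting enzyme of bile acid synthesis, whose nearest shared region was 74.1 kb away beside Ubxn2b, and Cyp27a1, the mitochondrial sterol 27-hydroxylase, whose nearest was 35 kb away beside Wnt6.

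The vitamin D genes had few regions of their own. Cyp27b1, which encodes the 1-alpha-hydroxylase that makes the active hormone, lay on chromosome 10 between 2 wide regions. The region upstream (127041869 to 127042898) was 5348 bp from its span, with peaks of 818 bp in replicate 1 and 1030 bp in replicate 2, and it overlapped the Mettl1 promoter. The region downstream (127062708 to 127063863) was 7824 bp away, with peaks of 969 and 1141 bp, and it overlapped the promoter of the cell cycle kinase gene Cdk4. Both therefore lay at other genes, and when a region counted for its closest protein-coding gene alone, 0 of the 3 vitamin D genes kept a link.

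Cyp24a1, the 24-hydroxylase that degrades the hormone, had no peak in either replicate. The nearest shared region was 13.9 kb beyond its span (chromosome 2, 170511052 to 170511693), nearest to Pfdn4, just past the 10 kb limit. Cyp2r1, the main vitamin D 25-hydroxylase, had no peak in either replicate, and its nearest shared region was 69.8 kb away beside Pde3b.

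Among the broadly expressed members, Cyp20a1 had regions in both replicates, and Cyp2u1 and Cyp4v3 had a peak in 1 replicate each. Cyp20a1, a P450 without an assigned main substrate, had the widest of the 4 promoter regions in the family. Its first region crossed the gene start on chromosome 1 (60342720 to 60343612), with peaks of 608 bp in replicate 1 and 893 bp in replicate 2, and covered the whole 300 bp promoter window. Its second (60352938 to 60353496) lay inside the gene, 9917 bp past the start, with peaks of 410 and 559 bp. Cyp2u1, a long-chain fatty acid hydroxylase, had a 309 bp peak inside its span in replicate 2 and none in replicate 1. Cyp4v3, the mouse counterpart of the fatty acid hydroxylase CYP4V2, had a 385 bp peak in replicate 1, 77 bp beyond the end where its transcript starts, and none in replicate 2.

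All 3 Ah receptor target genes were linked, 2 of them through the same region. Cyp1a1 and Cyp1a2, which encode inducible oxidases of aromatic hydrocarbons and amines, lie head to head on chromosome 9. A region between their transcript starts in the promoter table (57687989 to 57688990) had peaks of 831 bp in replicate 1 and 730 bp in replicate 2. It lay 4834 bp before the start of Cyp1a2 and 9124 bp before the start of Cyp1a1 in that table. The annotated span of Cyp1a1, on the plus strand, begins earlier, at 57687928, so the region lay inside the span near its first base. A second region within 10 kb of Cyp1a1 (57708134 to 57708668, peaks of 232 and 421 bp) overlapped the promoter of Edc3.

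Cyp1b1, which oxidises oestrogens and retinoids and is expressed outside the liver, had a region 612 bp upstream of its span on chromosome 17 (79715673 to 79716067). Replicate 1 had a peak of 395 bp there and replicate 2 one of 373 bp, and no other protein-coding gene lay within 30697 bp of it. Replicate 2 had a further peak of 271 bp, 22 bp from the gene, which replicate 1 lacked.

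Retinoic acid is degraded by the 3 enzymes of family 26. Cyp26c1 and Cyp26a1 are neighbours on chromosome 19 and shared 1 region (37689185 to 37690145), with peaks of 783 bp in replicate 1 and 754 bp in replicate 2. It lay inside Cyp26c1, 3985 bp past its start, and 8143 bp before the start of Cyp26a1. Cyp26b1 had a 208 bp peak in replicate 2, 7691 bp from its span, and none in replicate 1.

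The 6 steroid hormone genes had no shared region. Cyp19a1, the aromatase that makes oestrogens, had no peak in either replicate, and its nearest shared region was 318.2 kb away, the largest distance among the members outside arrays. Cyp11a1, which starts steroid synthesis by cleaving the cholesterol side chain, had non-overlapping peaks in the replicates, 9991 bp beyond the gene in replicate 1 and inside it in replicate 2. Cyp17a1, the 17-alpha-hydroxylase, had peaks of 221 and 216 bp in replicate 1 and none in replicate 2. Cyp11b1, the 11-beta-hydroxylase of corticosterone synthesis, had a 200 bp peak in replicate 2 alone, and neither Cyp11b2, the aldosterone synthase, nor Cyp21a1, the 21-hydroxylase, had a peak.

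Of the 5 remaining genes outside arrays, Cyp2c23, an arachidonic acid epoxygenase of the kidney, had 2 shared regions. The first (chromosome 19, 43999947 to 44000970) was 4052 bp from its span, with a peak of 857 bp in replicate 1 and of 398 bp in replicate 2. The second (44021659 to 44022078), inside the gene, was narrow in replicate 2, at 166 bp, against 420 bp in replicate 1. Cyp3a13 and Cyp2w1 had peaks in replicate 1 alone, and Cyp4f18, a leukotriene hydroxylase of neutrophils, had 2 in replicate 2 alone. Cyp2e1, the ethanol-inducible liver oxidase, had none in either, with its nearest shared region 66 kb away.

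**Figure D2:**
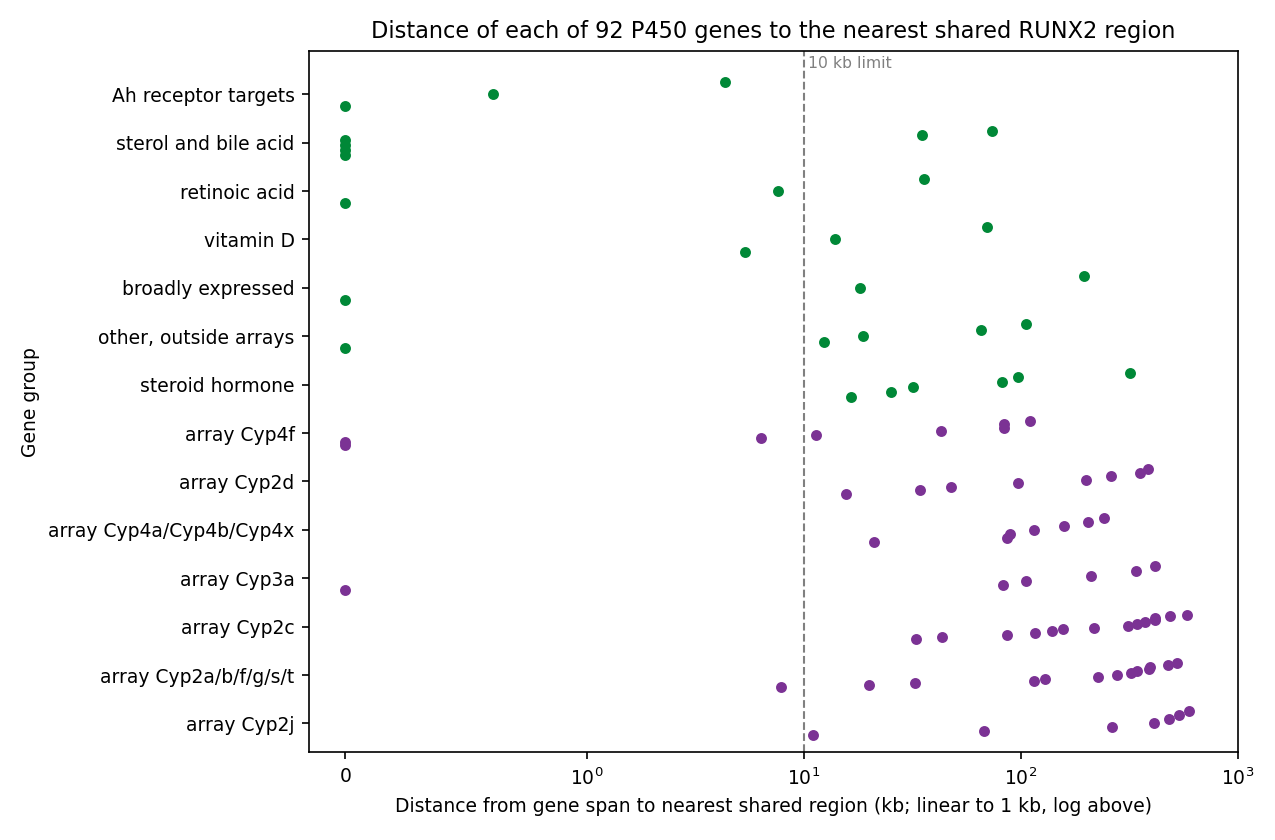
Distance in kb from the span of each of the 92 P450 genes to the nearest shared region (linear up to 1 kb, logarithmic above), by group, with 1 point per gene. Points left of the dashed line lie within the 10 kb limit. Genes outside arrays had a median distance of 16.5 kb, and array genes 157 kb.

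Most array genes were far from any shared region, with the Cyp4f genes nearer, at a median of 27.3 kb. The median distance to the nearest shared region was 16.5 kb for members outside arrays, against 157 kb for array genes and 4.9 kb for all protein-coding genes. More than 50 kb separated 8 of 29 members outside arrays (27.6%) from any shared region, against 47 of the 63 array genes (74.6%) and 27.7% of all protein-coding genes. The farthest member was Cyp2j5, at 595.8 kb.

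The 7 arrays together spanned 5387.7 kb. They held 9 peaks of replicate 1 and 12 of replicate 2, or 1.95 ± 0.39 peaks per Mb (SD, n = 2), against 10.9 ± 0.13 peaks per Mb over chromosomes 1 to 19. Shared regions numbered 7 in the arrays, or 1.3 per Mb, against 7.34 per Mb over these chromosomes. The 1 Mb on either side of each array held 21 peaks per Mb in replicate 1 and 20 in replicate 2, averaged over the arrays. The flanks held more peaks per Mb than the array in all 7 cases, and the Cyp2j flanks were the sparsest at 7.5 peaks per Mb, averaged over replicates.

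The Cyp4f array on chromosome 17 differed from the other 6. This array encodes fatty acid and eicosanoid omega-hydroxylases, and 3 of its 8 genes (37.5%) had a shared region, a share below the 54.8% of all protein-coding genes. It held 5 peaks of replicate 1 and 6 of replicate 2, or 11.1 ± 1.43 peaks per Mb (SD, n = 2), about the level of chromosomes 1 to 19. The other 6 arrays together held 1.02 ± 0.29 peaks per Mb, and 2 of their 55 genes (3.64%) had a shared region, against the same 54.8%.

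Within the Cyp4f array, Cyp4f16 had a region across its start (32536528 to 32537140, peaks of 593 bp in replicate 1 and 460 bp in replicate 2), which was also 6370 bp from Cyp4f17. Cyp4f13 had a region at its start (32947366 to 32947773), with peaks of 341 and 372 bp. The 3 other shared regions in the array lay at the zinc finger genes Zfp871, Zfp799 and Zfp870, which stand between the P450 genes. These 3 and Zfp811 were the 4 genes of other families in this array, and all 4 had a shared region within 10 kb. None of the other 11 protein-coding genes that lie inside the arrays and do not meet the naming rule had one, 5 of which are P450 genes with an added letter (Cyp3a41a, Cyp3a41b, Cyp4a12a, Cyp4a12b and Cyp4a30b).

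In the other arrays, 2 genes were linked. Cyp3a57, of the array encoding the main drug-oxidising enzymes of liver, had a region 8128 bp past its start (chromosome 5, 145353120 to 145353674), with a peak of 185 bp in replicate 1 and 555 bp in replicate 2. Cyp2t4, at the edge of the chromosome 7 array, lay 7879 bp from a region (27166443 to 27167141) that overlapped the promoter of Egln2, an oxygen-sensing prolyl hydroxylase gene. When a region counted for its closest protein-coding gene alone, the array count was 3 of 63 (46.8% of all protein-coding genes by this link) and the count over all members 12 of 92. One further shared region, between Cyp4x1 and Cyp4a29, was 21.2 kb from the nearest gene.

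The arrays without shared regions formed long empty stretches. All 14 genes of the Cyp2c array, which encode liver epoxygenases and hydroxylases of arachidonic acid and drugs, lay in a single stretch of 1256.7 kb without a shared region, and neither replicate had a peak between the first and the last of them. The 13 genes of the chromosome 7 array lay in a stretch of 1384.1 kb, the 7 Cyp2j genes in one of 1701.8 kb and the 8 Cyp2d genes in one of 794.2 kb. Neighbouring shared regions were separated by a median of 41.3 kb over chromosomes 1 to 19, and 303 of 17817 such gaps were at least as long as that holding the Cyp2c array. Peaks of a single replicate did occur, at Cyp2j6 (233 bp, replicate 1), Cyp2j9 (179 bp, replicate 2), Cyp2d10 (397 bp, replicate 2), Cyp2c70 (267 bp, replicate 1, 8826 bp beyond the gene) and Cyp2s1 (2 peaks in replicate 1 and 1 in replicate 2, not overlapping).

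**Figure D3:**
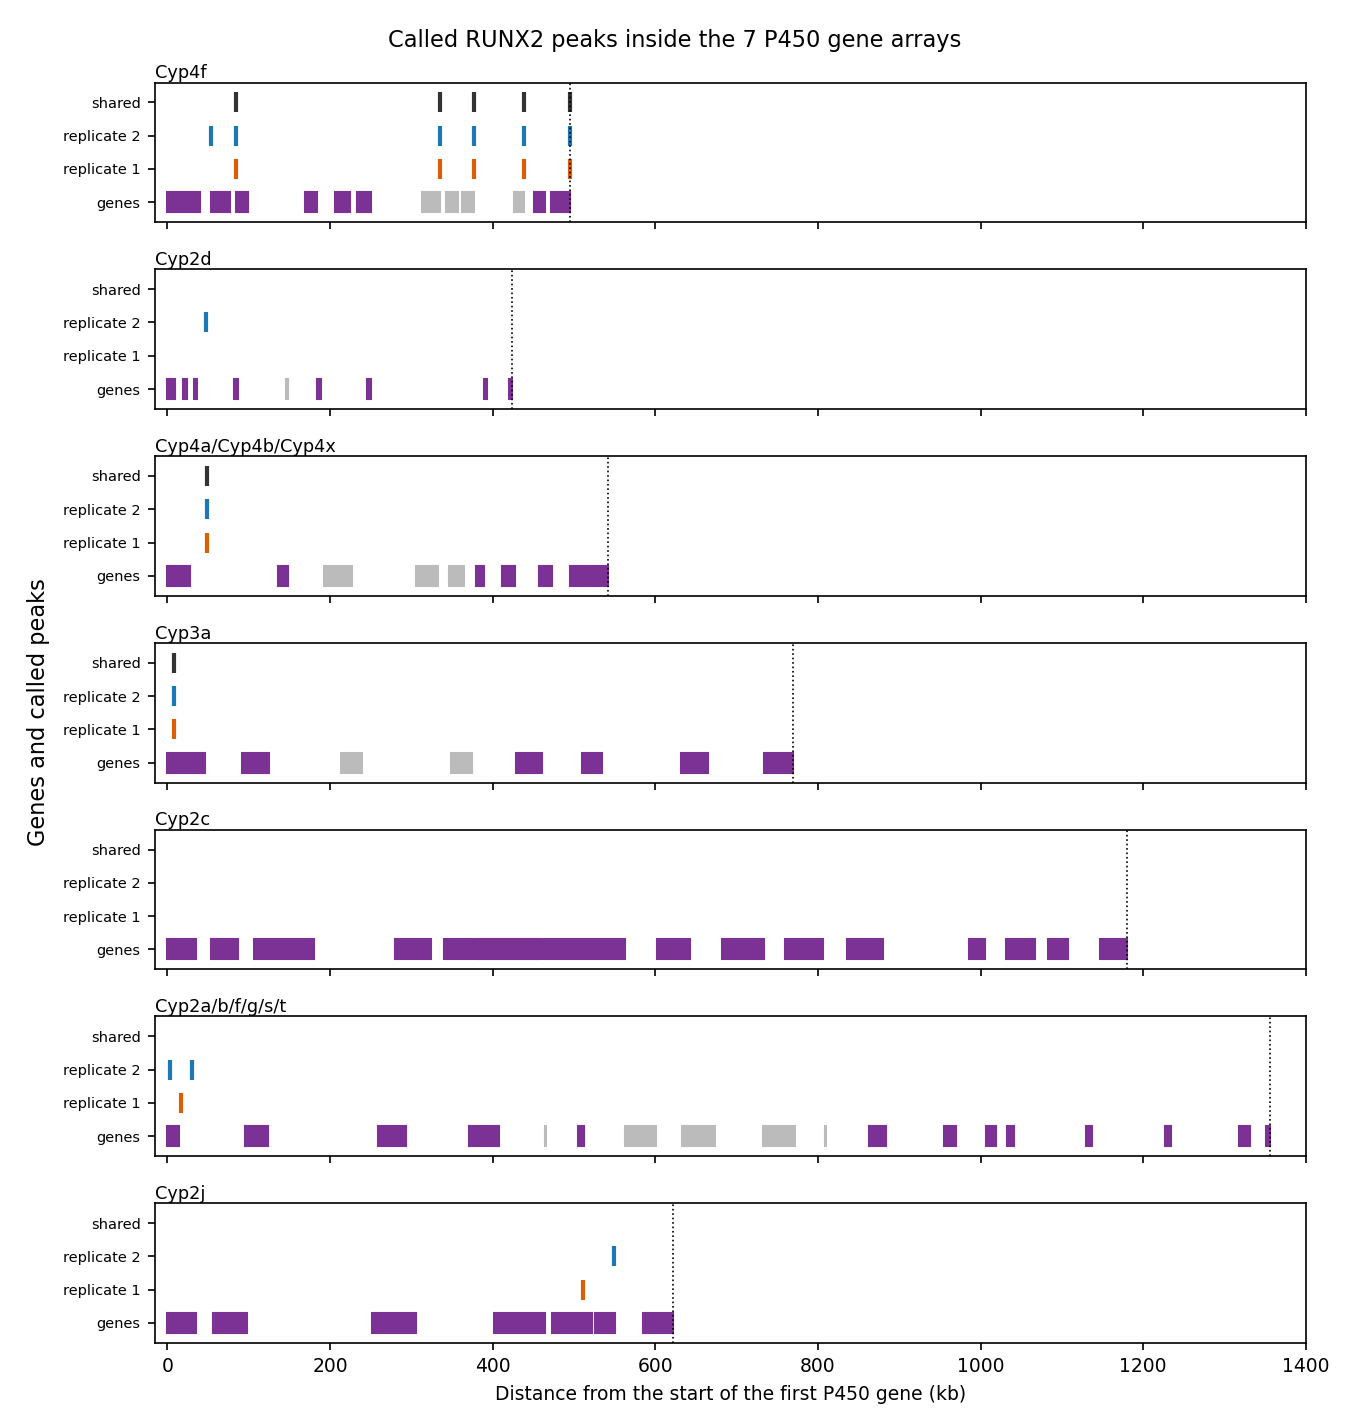
Called peaks along the 7 P450 arrays, in kb from the start of the first gene. Purple boxes are P450 genes that meet the naming rule, grey boxes other protein-coding genes, ticks are peaks of each replicate or shared regions, and the dotted line is the end of the array. The Cyp2c array of 14 genes has no tick, and the Cyp4f array has 5 shared regions.

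Near-identical sequence is a property of arrays that can limit peak calling, since reads that match several copies equally well may be discarded, and its part in these counts was not tested. RefSeq promoter windows, from 250 bases before to 50 after the transcript start, were found for 72 of the 92 members. At least 1 stretch of 50 bases occurred unchanged in the promoter of another protein-coding gene for 0 of 19 genes outside arrays, against 20 of the 53 array genes with a window. A shared region was linked to 2 of these 20 array genes and to 2 of the 33 array genes whose promoter had no such stretch, where all protein-coding genes stood at 54.8%. The 7 Cyp2j promoters had none either, and the Cyp2j array held 1 peak in each replicate and no shared region. The promoters of Cyp2b13 and Cyp2b9, which encode female-predominant liver enzymes, were the most alike pair, at 99.2% identity over the 250 bases before the start. They are shown with the 2 differing bases in capitals, as examples of array promoters without a peak (RefSeq, GRCm38.p6, chromosome 7, plus strand, 26061245 to 26061494 for Cyp2b13 and 26173159 to 26173408 for Cyp2b9).
Cyp2b13: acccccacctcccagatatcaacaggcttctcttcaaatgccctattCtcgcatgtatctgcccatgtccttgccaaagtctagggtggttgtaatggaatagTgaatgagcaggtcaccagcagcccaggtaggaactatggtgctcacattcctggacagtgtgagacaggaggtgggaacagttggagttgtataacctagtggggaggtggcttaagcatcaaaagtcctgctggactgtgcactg
Cyp2b9: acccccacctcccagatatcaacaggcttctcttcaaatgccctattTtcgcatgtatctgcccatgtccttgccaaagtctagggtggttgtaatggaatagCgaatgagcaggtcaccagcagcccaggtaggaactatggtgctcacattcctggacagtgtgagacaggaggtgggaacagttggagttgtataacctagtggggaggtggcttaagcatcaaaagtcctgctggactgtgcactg

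A shared region overlapped the promoter window of 4 members, Cyp20a1, Cyp46a1, Cyp4f13 and Cyp4f16, which is 5.56% of the 72 members with a window, against 34.2% of all protein-coding genes with one. The 250 bases before each start are given with CG dinucleotides in capitals, because the 4 promoters differ in this respect (RefSeq, GRCm38.p6). They lie on chromosome 1, plus strand, 60343050 to 60343299 (Cyp20a1), chromosome 12, plus strand, 108334066 to 108334315 (Cyp46a1), chromosome 17, minus strand, 32947362 to 32947611 (Cyp4f13) and chromosome 17, plus strand, 32536307 to 32536556 (Cyp4f16).
Cyp20a1: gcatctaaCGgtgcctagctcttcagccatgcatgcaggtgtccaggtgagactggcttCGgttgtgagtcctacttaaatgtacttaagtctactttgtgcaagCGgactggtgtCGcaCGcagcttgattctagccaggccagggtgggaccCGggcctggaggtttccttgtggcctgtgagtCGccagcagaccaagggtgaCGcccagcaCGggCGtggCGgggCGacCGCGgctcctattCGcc
Cyp46a1: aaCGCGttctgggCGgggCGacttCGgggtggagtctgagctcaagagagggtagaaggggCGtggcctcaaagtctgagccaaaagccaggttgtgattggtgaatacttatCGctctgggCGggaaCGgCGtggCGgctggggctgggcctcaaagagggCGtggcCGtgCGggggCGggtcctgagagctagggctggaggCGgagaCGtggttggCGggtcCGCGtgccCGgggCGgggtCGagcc
Cyp4f13: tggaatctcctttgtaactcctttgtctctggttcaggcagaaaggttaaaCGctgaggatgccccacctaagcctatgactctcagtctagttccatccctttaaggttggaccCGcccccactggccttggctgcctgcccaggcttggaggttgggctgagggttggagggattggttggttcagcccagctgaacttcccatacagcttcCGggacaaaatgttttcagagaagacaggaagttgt
Cyp4f16: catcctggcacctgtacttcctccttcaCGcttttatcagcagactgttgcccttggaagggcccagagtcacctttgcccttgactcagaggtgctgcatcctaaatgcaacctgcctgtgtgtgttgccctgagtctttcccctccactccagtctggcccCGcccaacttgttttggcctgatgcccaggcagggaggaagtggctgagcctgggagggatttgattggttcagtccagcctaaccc

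The Cyp46a1 and Cyp20a1 sequences held 23 and 15 CG dinucleotides, while those of Cyp4f13 and Cyp4f16 held 3 and 2. Low CG content was the rule in the family. The median ratio of observed to expected CG in the 300 bp windows was 0.15 over 82 windows of members, against 0.59 over all 20085 windows of protein-coding genes. A ratio over 0.6 was found in 6 of 22 windows of members outside arrays, against 0 of 60 array windows and 48.9% of all windows. The 6 were those of Cyp1b1, Cyp2r1, Cyp4v3, Cyp20a1, Cyp26a1 and Cyp46a1. A shared region overlapped the windows of Cyp20a1 and Cyp46a1, a peak of replicate 1 that of Cyp4v3 and a peak of replicate 2 that of Cyp1b1, and no peak touched those of Cyp2r1 and Cyp26a1.

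Over all protein-coding genes, windows with a ratio over 0.6 overlapped a shared region in 55.3% of cases and the rest in 9.62%. Among members, the counts were 2 of 6 and 2 of 76 (2.63%). The share of members was thus below that of all windows in both classes, though 6 windows are few. The part of low CG content in the small number of promoter regions was not tested.

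**Figure D4:**
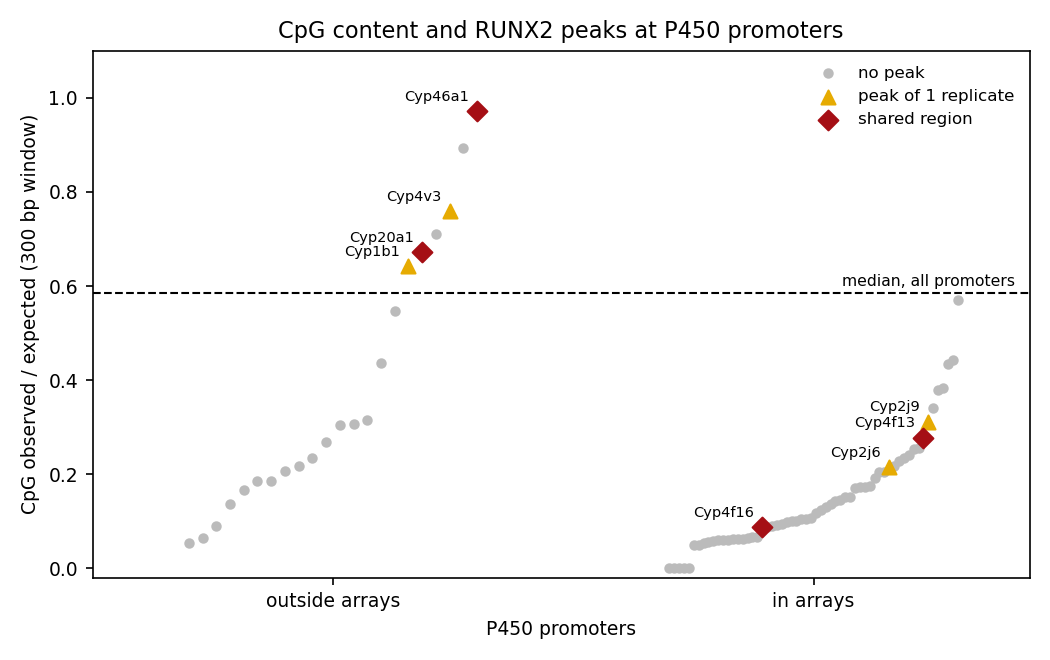
Observed over expected CG in the 300 bp promoter windows of P450 genes, outside and in arrays, ordered by value within each set, with 1 point per window. Red diamonds mark windows overlapped by a shared region, yellow triangles those with a peak of 1 replicate, and the dashed line is the median of all windows, at 0.59.

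RUNX proteins bind the letters TGTGGT or TGCGGT, and AP-1 factors, which act at many of the same sites in osteoblasts, bind TGANTCA. Both strands of the windows were searched, and the RUNX forms differ in 1 letter, so they cannot match the same bases of a strand. TGTGGT was found in 8 of 82 windows of members (9.76%), against 14.8% of all windows, and TGCGGT in 2 (2.44%), against 7.5%. TGANTCA was found in 6 (7.32%), against 7.06%. The 4 windows overlapped by a shared region held neither RUNX form. Over all windows overlapped by a shared region, TGTGGT was found in 11.9% and TGCGGT in 11.1%, and 4 windows are too few to set against these shares. The Cyp4f16 window held the AP-1 form TGACTCA, starting 168 bases before the transcript start and outside the called region, which covered the last 79 bases of the window. The sequence of the regions beyond these windows was not analysed here.

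The genes that supply or control P450 enzymes differed from the P450 genes in their counts. These genes were listed by hand with earlier results of these data known, so their shares are descriptions only. Of 10 genes for electron transfer and haem, 8 had a shared region (80%), and of 17 genes for receptors and regulators of P450 expression, 14 (82.4%), against 54.8% of all protein-coding genes. When a region counted for its closest protein-coding gene alone, these became 7 of 10 and 12 of 17, against 46.8%. Median spans were 18.7 kb and 46.5 kb, against 17.5 kb for all protein-coding genes. Of all genes of 30 to 100 kb, 65% had a shared region. Por, which encodes the reductase that serves all microsomal P450 enzymes, had 6 shared regions, more than any P450 gene of the naming rule, where the largest number was 2. Of the 6, 4 lay at least partly inside the Por span. One of them overlapped the Por promoter on chromosome 5 (135688688 to 135689368), with peaks of 652 bp in replicate 1 and 681 bp in replicate 2. A region downstream of Por (135743625 to 135744581) overlapped the Tmem120a promoter.

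Fdx1, the mitochondrial ferredoxin, and its reductase Fdxr had 1 region each, both at the promoter, and Cyb5r3, the cytochrome b5 reductase, had 5. Of the Cyb5r3 regions, 1 overlapped the neighbouring gene Poldip3. Fdx2 and Cyb5b had none. Among the receptors, Vdr, the vitamin D receptor, had 4, including one of 1104 bp in replicate 1 and 1283 bp in replicate 2 across its start (chromosome 15, 97907072 to 97908354). Ahr and its partner Arnt had 1 each, Ahrr had 2 and Rarg had 3. Of these, 1 Ahrr region overlapped the promoter of Exoc3, and 1 Rarg region overlapped the gene Itgb7. The xenobiotic receptor Nr1i2, the liver X receptor Nr1h3 and the liver factor Hnf4a were the 3 without a shared region. Nr1h3 had 1 peak in each replicate, which did not overlap. Nr1i3, Nr1h4 and Nr0b2 had 1 shared region each, inside the gene for Nr1h4 and overlapping other genes for Nr1i3 and Nr0b2. Of 4 P450 enzymes known by other symbols, Cyp51, the sterol 14-demethylase that every cell uses to make cholesterol, had a region across its start (chromosome 5, 4104413 to 4104920, peaks of 508 and 415 bp). Ptgis, the prostacyclin synthase, had 1 inside the gene, Tbxas1, the thromboxane synthase, had 2, and Cyp2ab1 had none.

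The 19 regions linked to P450 genes were of ordinary width. Their median merged width was 613 bp (395 to 1156), against 630 bp for all 17836 shared regions on chromosomes 1 to 19. Of the 22 links between these regions and members, 7 were to a region wholly inside the member and 6 to one across its end. In 8 of the 22 links another protein-coding gene was as near or nearer. Near members, 19 of 32 replicate 1 peaks were shared (59.4%, 95% Wilson interval 42.3 to 74.5), against 68.4% of all on chromosomes 1 to 19 (67.9 to 69). In replicate 2, 19 of 34 were shared (55.9%, 39.5 to 71.1), against 67.3% (66.7 to 67.9). These intervals include the value of all peaks, but they are wide, so no difference or likeness can be read from them. They cover counting error only and treat the peaks as independent, while the same 19 regions were counted in both replicates.

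**Figure D5:**
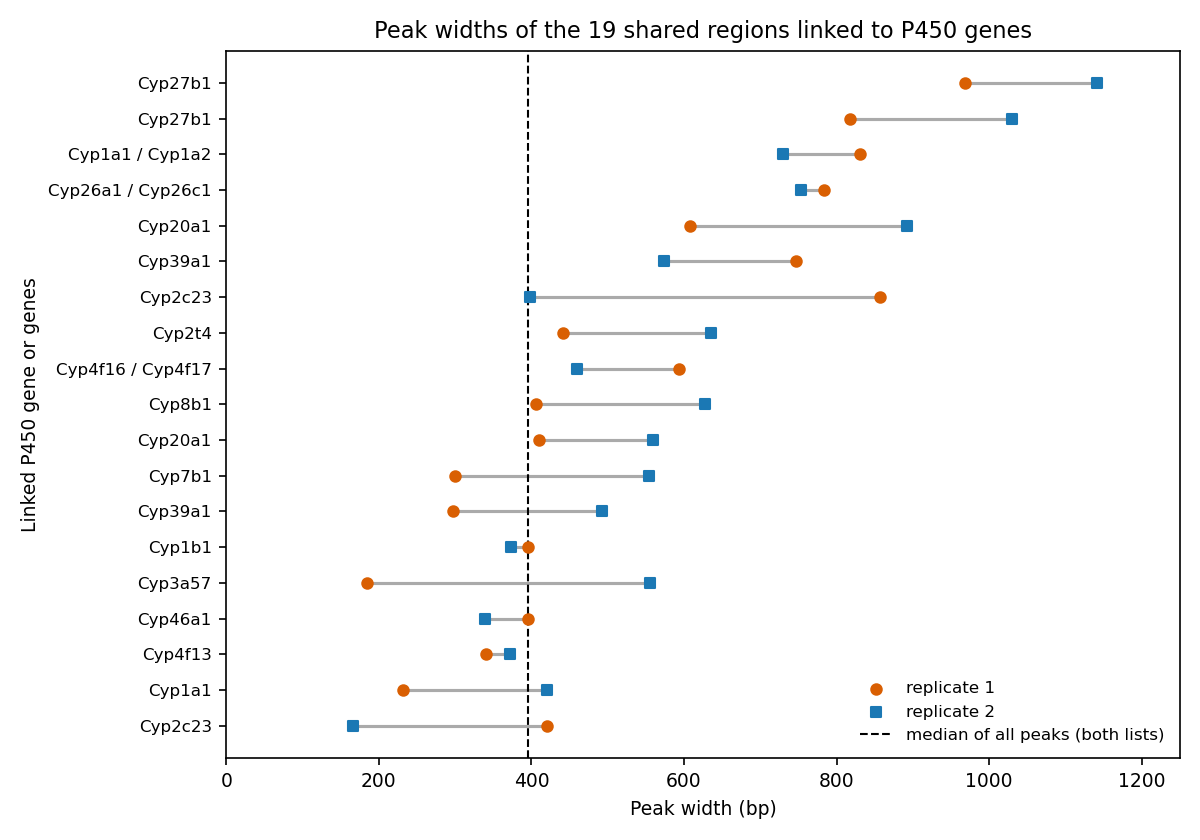
Peak width in bp for the 19 shared regions linked to P450 genes, with circles for replicate 1, squares for replicate 2 and a line joining the pair. The dashed line is the median of all peaks, 395 bp in each list. The regions beside Cyp27b1 were the widest, and 2 regions held a peak under 200 bp in a replicate, at Cyp3a57 and Cyp2c23.

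Other gene families of drug and hormone metabolism, chosen after the P450 counts were seen, varied widely by the same link. All protein-coding genes stood at 54.8%. A shared region was found at 3 of 21 sulfotransferase (Sult) genes (14.3%), 6 of 22 glucuronosyltransferase (Ugt) genes (27.3%), 2 of 7 flavin monooxygenase (Fmo) genes (28.6%), 14 of 23 glutathione transferase (Gst) genes (60.9%) and 15 of 21 aldehyde dehydrogenase (Aldh) genes (71.4%). Keratin genes, which also lie in tandem arrays, had 7 of 49 (14.3%). Sult, Ugt, Fmo and keratin genes thus also stood below 54.8%, and Gst and Aldh genes above it. The families were not tested against each other.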

How the data were processed

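RUNX2 CUT&Tag was done in 1 group of 2 replicates. The deposited lists give start, end and width of each peak in bp (no score, intensity or other value), separately per replicate. Per the submitters' processing notes, fastp 0.19.6, Bowtie2 and deepTools were used with GRCm38 (mm10), and no source used here names the peak caller, its threshold or a control. Width equals end minus start plus 1, so positions count from 1.

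Genes came from the RefSeq GRCm38.p6 table. On chromosomes 1 to 19, peaks with an overlap of 1 bp or more were joined, and regions with both replicates were linked to genes within 10 kb (Python 3.11.15, pandas 2.3.3). Overlap counts were checked against bedtools 2.31.1, and the links were tested on simulated data. Density used the span from the first to the last gene or peak of each chromosome. All P450 genes of the functional lists are named, as is every member with a shared region. Other array members are given mostly by count, and the genes that supply or control P450 enzymes are named in part. The members and lists were chosen with earlier results of these data known. No test was made across genes. The planned protein comparison was not run, and promoters stood in for it. Alternatives were other distances, overlaps, widths, array gaps, nearest-gene links and single replicates. Wilson intervals at 95% cover counting error.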

Additional observations from a re-analysis of the deposited data

How the results depend on the processing

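The count of members with a shared region was 17 with 12 outside arrays and 5 in them. Within 50 kb these became 37, 21 and 16, against 72.3% of all protein-coding genes. Inside the span alone they became 11, 8 and 3, against 42.8%. Within 1 kb, array genes numbered 3 (45.4% of all genes), as they did with peaks above the median width (37.8%) and with nearest-gene links (46.8%). With array gaps up to 200 kb they numbered 3 of 57 (54.8% of all genes). Peak midpoints gave 54.6% of all genes and a reciprocal overlap of 50% gave 46.8%, with 17 and 15 members. Leaving out either replicate gave 25 members, 17 outside arrays and 8 in them, in both cases, against 62.7 to 62.8% of all genes. The sterol, vitamin D and broadly expressed genes stood between 4 and 9 of 12 under all these settings. Peaks per Mb inside arrays were 1.3 for shared regions, against 7.34 over chromosomes 1 to 19. With a replicate left out they were 1.67 to 2.23, against 10.84 to 11.02 over these chromosomes. With wide peaks they were 0.557, against 3.776. In each of these settings the share of array genes was below that of all protein-coding genes. No paired analysis was possible because the series holds 1 group. Depth is unknown, so weak binding at P450 genes cannot be judged.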
